A study of Mus musculus with 2 samples.

Results

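Müller glia (MG) that the authors did not place in their main MG cluster were examined, to describe what kind of cells carry the MG name there. They were chosen as every cell with the deposited name MG and a deposited cluster number other than 4. The rule gave 524 of 2904 MG, in a table of 30943 retinal cells. These 524 cells came from 2 clusters, with 381 cells in cluster 16 and 143 cells in cluster 22, and both clusters held cells named MG alone. The cells came from dissociated retinas of 1 Chx10-Cre;Ptbp1+/+ mouse (Ptbp1-Ctrl) and 1 Chx10-Cre;Ptbp1lox/lox mouse (Ptbp1-KO), each 30 days old, profiled as 1 droplet single-cell RNA-seq library per genotype. Chx10-Cre, which both mice carry, drives Cre in retinal progenitors, and the loxP sites flank the promoter and first exon of Ptbp1, a splicing regulator that holds back neuronal exons in non-neuronal cells. With 1 mouse per genotype there was no replicate, and genotype cannot be told apart from mouse, dissociation or library.

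MG are the main glia of the retina and span its whole thickness, wrapping the neurons with fine processes. They take up glutamate and convert it to glutamine, buffer potassium and water, bind retinoids for cone vision and secrete apolipoproteins. Their cell bodies lie in the inner nuclear layer among bipolar cells (BC), and their outer processes reach between rods and cones.

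The summed unique molecular identifier (UMI) counts were 894641 over the 334 outside cells of Ptbp1-Ctrl and 625245 over the 190 of Ptbp1-KO. Across the 2 libraries, 63 cell barcodes occurred in both, 1 of them in a cell examined here. The study describes the mice as female, but the cells outside cluster 4 held 487 (Ptbp1-Ctrl) and 356 (Ptbp1-KO) UMIs of the Y genes Uty, Eif2s3y, Ddx3y and Kdm5d. Intervals below are exact, at 95%, and cover counting error only. Levels (CPM) are a gene's UMIs scaled to a total of 1000000 after summing over the cells of a cluster and sample, and no test was run between clusters or genotypes.

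In Ptbp1-Ctrl, 334 of 1720 MG lay outside cluster 4, or 19.4% (17.6 to 21.4). In Ptbp1-KO the number was 190 of 1184, or 16.05% (14.001 to 18.3). The intervals overlapped. Cluster 16 took 245 MG of Ptbp1-Ctrl, 14.2% (12.6 to 15.99), and 136 of Ptbp1-KO, 11.5% (9.73 to 13.4). Cluster 22 took 89 MG of Ptbp1-Ctrl, 5.17% (4.18 to 6.33), and 54 of Ptbp1-KO, 4.56% (3.44 to 5.91). Both clusters thus drew cells from both libraries, with overlapping shares. Without the 5% of cells with the highest doublet score of each library, the outside share was 15.3% in Ptbp1-Ctrl and 12.5% in Ptbp1-KO.

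The clusters lay on opposite sides of cluster 4 in depth. Median UMIs per cell in cluster 4 were 3475 in Ptbp1-Ctrl and 4351 in Ptbp1-KO. In cluster 16 they were 1314 and 1715, which is 0.378 and 0.394 of cluster 4. In cluster 22 they were 6076 and 7127, or 1.75 and 1.64 times cluster 4. Median genes per cell followed the same order, with 920 and 1088 in cluster 16, 1970 and 2304 in cluster 4, and 3019 and 3348 in cluster 22. Of the 381 cells of cluster 16, 303 held under 2000 UMIs, as did 126 of the 2380 cells of cluster 4. Of the 143 cells of cluster 22, 103 held 5000 UMIs or more, as did 486 cells of cluster 4. The median of cluster 22 stood below the sum of the medians of cluster 4 and BC, 6252 in Ptbp1-Ctrl and 8169 in Ptbp1-KO, and the authors' filter removed cells of 10000 or more UMIs. The median percent of UMIs from mitochondrial genes was 1.67 and 1.41 in cluster 16, 2.70 and 2.01 in cluster 4, and 2.73 and 2.46 in cluster 22.

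**Figure D1:**
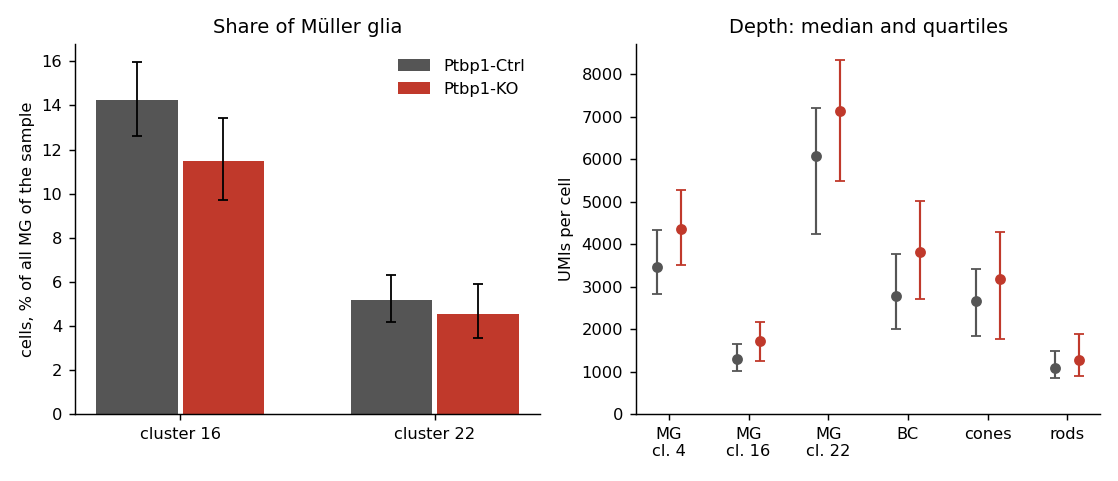
Left, cells of clusters 16 and 22 as a percent of all MG of each sample, with exact 95% intervals that cover counting error only; right, UMIs per cell as medians (points) and quartiles (bars) in clusters 4, 16 and 22 and in BC, cones and rods. Cluster 16 sits well below cluster 4, at medians of 1314 and 1715 UMIs, and cluster 22 above it, at 6076 and 7127.

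A doublet score, the share of simulated mixtures of cell pairs among the nearest neighbours of a cell, also set the clusters apart. In cluster 22, 78 of 89 cells of Ptbp1-Ctrl (87.6%, 79.0 to 93.7) and 31 of 54 of Ptbp1-KO (57.4%, 43.2 to 70.8) lay among the highest 5% of their library. In cluster 16 the numbers were 27 of 245 (11.0%, 7.39 to 15.6) and 26 of 136 (19.1%, 12.9 to 26.7), and in cluster 4 they were 8.23% and 6.44%. Whether single droplets of these clusters held 2 cells was not tested. Without the highest scores, 11 and 23 cells of cluster 22 were left, and its list levels in them are given below.

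The label was checked against 4 core MG markers: Glul, glutamine synthetase, Rlbp1, a retinaldehyde-binding protein, Slc1a3, the glutamate transporter GLAST, and Apoe, apolipoprotein E. Together they took 2.29% of the UMIs of cluster 4 in Ptbp1-Ctrl and 2.36% in Ptbp1-KO. They took 1.23% and 1.40% in cluster 16, and 1.37% and 1.30% in cluster 22. Both outside clusters thus carried the core markers at a lower level than cluster 4, in both samples. At least 10 core marker UMIs were found in 331 of 381 cells of cluster 16 and 142 of 143 cells of cluster 22. Counting a gene as 2-fold different when its CPM differed over 2-fold the same way in both samples, over genes with a mean of at least 50 CPM, none of the 26 MG markers was higher in cluster 16 and 9 were lower. The background in cluster 16 was 142 of 4196 genes higher (3.38%) and 466 lower (11.1%). In cluster 22 none of the 26 was past 2-fold, against 299 of 4332 genes higher (6.9%) and 19 lower (0.439%). For both clusters together, 216 of 4305 genes were higher (5.02%) and 79 lower (1.84%), and 8 of the 26 markers were lower. This balance depended on processing. The counts were 170 higher and 187 lower under TMM scaling, 172 and 221 with cells thinned to 1000 UMIs, and 198 and 109 genes under median-of-ratios scaling. These genes were also used to make the clusters, so the counts describe them and test nothing.

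In cluster 16 the MG markers split. Glul, the most abundant of them, stood at 10506 and 10652 CPM in cluster 4 (Ptbp1-Ctrl and Ptbp1-KO) and at 2177 and 2145 in cluster 16, a log2 ratio of −2.27 and −2.31. Apoe stood at 8774 and 9160 CPM in cluster 4 and at 8327 and 9962 in cluster 16, a log2 ratio of −0.08 and 0.12. Glul was thus far lower in both samples while Apoe was near the level of cluster 4. Rlbp1 fell on the side of Glul, with 2064 and 2078 CPM against 472 and 310 in cluster 16. Slc1a3 fell on the side of Apoe, with 1521 and 1712 CPM against 1306 and 1573.

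The 26 markers were then divided by where their protein is found, a grouping made after these values were seen. The 2 groups also differ in gene length, given below, and the part of location or length was not tested. The 11 markers of the cytosol or nucleus were all below cluster 4 in both samples, with a median log2 ratio of −2.18 and −2.06. Among them Vim, the intermediate filament vimentin, went from 532 and 528 CPM in cluster 4 to 83.6 and 75.5 in cluster 16. Sox9, a transcription factor of MG, went from 649 and 529 CPM to 127 and 83.4, and Sox2, which keeps progenitor and glial identity, from 347 and 368 to 59.4 and 67.5. Car2, the cytosolic carbonic anhydrase, and Prdx6, a peroxiredoxin, had log2 ratios between −1.89 and −2.18. The 15 markers of the membrane or of secreted proteins had a median of −0.08 and 0.07. In this group were Clu, the secreted chaperone clusterin (0.20 and 0.35), Dkk3, a secreted glycoprotein (0.24 and 0.41), Abca8a, an ABC transporter (0.27 and 0.48), and Aqp4, the water channel (−0.13 and −0.24). Slc38a3, a glutamine transporter, was the highest, at 0.91 and 0.89. Counted as UMIs per cell, cluster 16 held 9.75% and 8.97% of the cytosolic or nuclear UMIs of a cluster 4 cell, but 42.1% and 46.3% of the membrane or secreted ones.

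**Figure D2:**
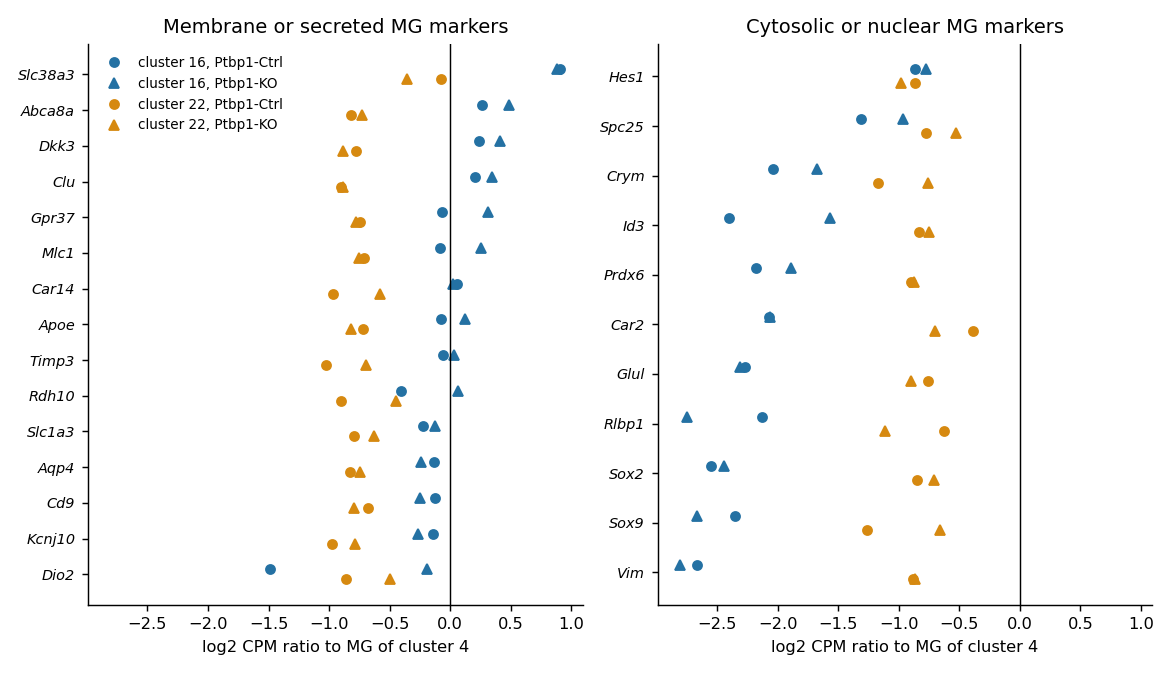
Log2 ratio of CPM in cluster 16 (blue) and cluster 22 (orange) to cluster 4 of the same sample, for 15 membrane or secreted and 11 cytosolic or nuclear MG markers, with circles for Ptbp1-Ctrl and triangles for Ptbp1-KO. In cluster 16 all 11 cytosolic or nuclear markers lie below 0 and the others scatter around it (their median falls below 0 under TMM scaling), whereas in cluster 22 all 26 lie below 0.

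The gap between the groups was also present against shallow cells of cluster 4. Against the cluster 4 cells of under 2000 UMIs, the cytosolic or nuclear markers of cluster 16 had a median log2 ratio of −2.05 and −2.19, and the membrane or secreted ones of −0.37 and −0.36. All 11 of the former and 10 of the 15 latter were below these cells in both samples, and none of the 15 was above them in both. Of all genes, 32.8% were below these cells in both samples and 42.6% above. Apoe then stood at −0.61 and −0.49, Clu at −0.37 and −0.50 and Slc38a3 at 0.45 and −0.35. TMM scaling lowered every log2 ratio of cluster 16 to cluster 4 by 0.29 and 0.30, which leaves the gap between the groups as it is and turns the membrane or secreted median below 0, as it does Clu, Dkk3 and Abca8a in Ptbp1-Ctrl. Over all genes with enough CPM the median log2 ratio was 0.17 and 0.16. The median of the 22 MG markers beyond the core list, −0.20 as the mean of both samples, became −0.80 against the shallow cells and −0.49 under TMM.

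Shares of cells at equal depth gave the same order. After each cell was thinned to 1000 UMIs, 74.3% and 73.8% of cluster 16 cells had a Glul UMI, against 99.9% in both samples of cluster 4. Rods, which do not express Glul, had one in 9.79% and 9.83%, at median depths of 1088 and 1288 UMIs before thinning. For Apoe the share was 95.3% and 92.1% in cluster 16 and 3.81% and 3.48% in rods. Vim was seen in 8.38% and 4.76% of cluster 16 cells and in 40.9% and 39.6% of cluster 4 cells. Thinning left out 54 cells of Ptbp1-Ctrl and 10 of Ptbp1-KO from cluster 16. Without thinning, a Glul UMI was present in 83.7% and 84.6% of cluster 16 cells.

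Other gene groups, again formed after values were seen, also lay on both sides of cluster 4 in cluster 16. Whether they follow protein location was not tested. The 83 cytosolic ribosomal protein genes took 2.30% and 1.67% of the UMIs of cluster 16, against 4.93% and 4.28% in cluster 4, and 80 of them were lower in both samples. Low shares were not particular to cluster 16. Over both samples and all genes named Rpl or Rps it held 2.07%, rod clusters 0 and 1 1.82% and 2.20%, and BC clusters 10 and 20 2.15% and 1.64%. Rod clusters 2 and 3, of median depths of 1659 and 1631 UMIs, held 3.99% and 7.19%. Of 39 complex I genes of the respiratory chain, 33 were lower in both samples, as were all 17 genes of the ATP synthase and 21 of 26 proteasome genes. The 4 S100 calcium-binding proteins had medians of −2.92 and −3.42, and the 5 glutathione S-transferases of −2.24 and −2.03. On the other side, all 8 collagen genes were higher in both samples, with medians of 0.53 and 0.73, and so were 41 of 55 solute carrier genes, with medians of 0.46 and 0.36. Of 11 ABC transporter genes, 7 were higher in both samples and 2 lower, and of 6 integrin genes, 5 were higher and 1 lower. Over all 4196 genes, 50.4% were above cluster 4 in both samples and 35.1% below. Against the cluster 4 cells of under 2000 UMIs, 4 of the 8 collagens and 28 of the 55 solute carriers were above 0 in both samples, against 42.6% of all genes, and their medians were 0.31 and 0.33 and 0.39 and 0.31. Against the same cells the ABC transporters had medians of −0.02 and −0.06, with 3 of 11 above and 5 below in both samples. The integrins had medians of 0.17 and 0.10, with 3 of 6 above and 1 below. Under TMM scaling the collagen and solute carrier medians stayed above 0.

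By the fixed rule, the 5 lowest genes of cluster 16 were S100a16, Dbi, Rhoc, S100a1 and Psme1. Dbi, which encodes the acyl-CoA-binding protein, stood at 3522 and 2986 CPM in cluster 4 and at 410 and 218 in cluster 16, a log2 ratio of −3.10 and −3.77. With cells thinned to 1000 UMIs, Dbi was found in 93.5% and 89.6% of cluster 4 cells and in 27.7% and 16.7% of cluster 16 cells. S100a16 and S100a1 are calcium-binding proteins, Rhoc is a small GTPase and Psme1 an activator of the proteasome. On the other side, the 5 highest were Grik1, Gm10801, Gm10800, Egfros and Kcnma1. Grik1, a kainate receptor subunit of OFF bipolar cells, was found in few cells. Its 36 UMIs in Ptbp1-Ctrl came from 8 of 245 cells, 20 of them from 1 cell, and its 23 UMIs in Ptbp1-KO from 5 of 136 cells.

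Gm10800 and Gm10801 were spread more widely. Gm10800 stood at 137 and 276 CPM in cluster 4 and at 831 and 1521 in cluster 16, with a UMI in 51.4% and 81.6% of cluster 16 cells before thinning. Gm10801 stood at 70.2 and 136 CPM in cluster 4 and at 413 and 846 in cluster 16. Both were higher in cluster 16 in each sample and were not higher in cluster 22. These predicted genes lie side by side in GRCm38 at chr2:98666547-98667301 (Gm10800, minus strand) and chr2:98662237-98664083 (Gm10801, plus strand), and how reads were divided between such neighbours was not tested. Among neuronal clusters they were highest in BC cluster 10, where Gm10800 reached 1204 CPM.

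Gene length went with the ratio in cluster 16. Protein-coding genes of up to 5 kb in GENCODE M21 had a median log2 ratio of −1.03 and −1.25, with 168 of 363 lower past 2-fold. Those of 5 to 20 kb stood at −0.52 and −0.62, those of 20 to 100 kb at 0.15 and 0.14, and those over 100 kb at 0.49 and 0.55, with 57 of 1134 higher. In cluster 22 the same 4 classes had medians between −0.14 and 0.10 in Ptbp1-Ctrl and between −0.26 and 0.11 in Ptbp1-KO, and 183 of its 299 genes past 2-fold higher were protein-coding genes over 100 kb. Of 51 antisense genes in cluster 16, 25 were higher past 2-fold and 1 was lower. Reads of a gene and its antisense partner can be told apart only if the counting used strand, which is not given in the sources used here. Among the MG markers, Sox2, Vim, Glul and Car2 of the cytosol or nucleus span 2.06, 8.90, 9.78 and 14.5 kb. Of the membrane or secreted markers, Dkk3, Abca8a and Slc1a3 span 43.0, 70.3 and 76.6 kb, but Apoe and Clu span 3.08 and 13.1 kb. The part of gene length in the levels of cluster 16, and in its marker groups, was not tested.

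Regulatory genes were largely lower in cluster 16. Of the 15 Notch pathway and glial transcription factor genes with enough CPM, 10 were lower past 2-fold and none was higher. Over all tested genes, 11.1% were lower and 3.38% higher. Lhx2, a homeobox factor of MG, went from 460 and 433 CPM to 116 and 87.4, and Hes5, a Notch target, from 165 and 92.1 to 37.8 and 19.9. Nfia (1052 and 1057 against 971 and 925) and Nfib (632 and 666 against 712 and 731), factors of late gliogenesis, stayed near cluster 4. Nfia and Nfib, which span 346 and 416 kb, thus differed from most of the list. Of 10 genes of the dissociation stress response with enough CPM, 7 were lower and none higher. Fos, an immediate early gene, went from 512 and 534 CPM to 138 and 191, and Jun, its partner, from 567 and 589 to 165 and 135. Several genes of both lists are short, such as Hes5 (1.45 kb), Fos (3.38 kb) and Jun (3.19 kb). Of all protein-coding genes of up to 5 kb, 168 of 363 were lower past 2-fold, and the part of length in these counts was not tested. Of 4 reactive gliosis genes with enough CPM, Vim was lower and none was higher. Gfap, the astrocytic filament protein, stood at 5.40 and 7.94 CPM in cluster 16 against 4.79 and 6.05 in cluster 4.

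Of the neuronal lists, that of rods took the largest share of cluster 16. The 14 rod genes took 2.32% (2.27 to 2.37) of its UMIs in Ptbp1-Ctrl and 1.53% (1.48 to 1.58) in Ptbp1-KO. In cluster 4 they took 1.03% and 0.846%, and in rods 6.83% and 6.19%. Cluster 16 thus held 2.25 and 1.81 times the rod share of cluster 4, and all 14 rod genes were higher in both samples. Gnat1, rod transducin, stood at 1726 and 1358 CPM in cluster 16 against 866 and 831 in cluster 4. Per cell, the rod share had medians of 1.32% and 0.836% and reached 10.1% and 6.16%. Counted per cell, cluster 16 held 35.2 and 28.3 rod UMIs and cluster 4 held 37.4 and 37.98. The BC list took 0.0861% and 0.0830% of UMIs in cluster 16, against 0.0308% and 0.0310% in cluster 4, and the cone list 0.0658% and 0.0211% against 0.00926% and 0.00856%. Only 13 of 381 cells held 10 or more UMIs of the BC or cone list, which is 3.41% (1.83 to 5.76). For the cone list these were 3 cells of Ptbp1-Ctrl and 0 of Ptbp1-KO. Without the highest doublet scores, the cone list stood 1.47 above cluster 4 on the log2 scale, against 2.06 in all cells.

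**Figure D3:**
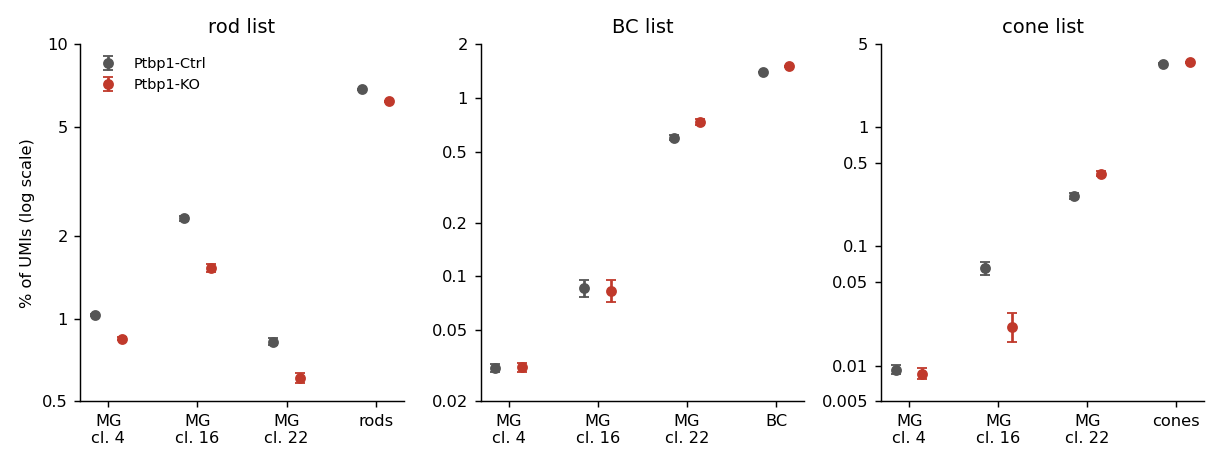
Percent of summed UMIs taken by the rod, BC and cone marker lists in clusters 4, 16 and 22 and in the neurons each list marks, on a log scale, with exact Poisson 95% intervals. Among these clusters the rod list is highest in cluster 16, at 2.32% and 1.53%, and the BC and cone lists in cluster 22, at 0.598% and 0.729% for BC and 0.264% and 0.408% for cones.

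Markers of other cells took small shares of cluster 16, but the microglia, endothelium and pericyte lists stood above cluster 4 in both samples. The 10 microglia genes took 0.0103% and 0.0127% of UMIs, 1.46 and 1.65 times cluster 4, with 6 and 7 of them at 0. The 6 astrocyte genes took 0.00459% and 0.0195%, 0.739 and 2.14 times cluster 4. The 7 endothelium genes took 0.194% and 0.196%, against 0.156% in both samples of cluster 4, and the 6 pericyte genes 0.0383% and 0.0230% against 0.0181% and 0.0166%. Their part in the results on cluster 16 was not tested.

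Cluster 22 showed another pattern, in which all MG markers were lower together and neuronal genes of 2 types were added. Glul stood at 6205 and 5725 CPM against 10506 and 10652 in cluster 4, Apoe at 5317 and 5202 against 8774 and 9160, and Vim at 288 and 289 against 532 and 528. All 26 markers lay below cluster 4 in both samples, against 40.7% of all 4332 genes. Their medians were −0.82 and −0.74 for membrane or secreted markers and −0.85 and −0.76 for cytosolic or nuclear ones. The split seen in cluster 16 was therefore not present. Counted per cell, cluster 22 held 95.3% and 90.01% of the membrane or secreted and 96.4% and 83.5% of the cytosolic or nuclear marker UMIs of a cluster 4 cell.

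Bipolar genes were the larger addition. The 14 BC genes took 0.598% (0.577 to 0.619) of UMIs in Ptbp1-Ctrl and 0.729% (0.702 to 0.757) in Ptbp1-KO, which is 19.4 and 23.5 times the share in cluster 4 and 42.9% and 48.5% of the share in BC. All 12 BC genes with enough CPM were higher past 2-fold. Those low in cluster 4, such as Trpm1 and Grik1, passed the CPM filter only through cluster 22. For such genes this count describes little beyond the filter. Trpm1, the transduction channel of ON bipolar cells, stood at 752 and 862 CPM against 15.8 and 22.2 in cluster 4. Prkca, protein kinase C alpha of rod bipolar cells, stood at 1084 and 1708 against 147 and 130, and Grik1 at 466 and 378 against 11.97 and 7.62. Genes of both ON and OFF bipolar cells were thus present. In single cells, 84 of 143 held 3 or more UMIs of the ON genes Grm6, Trpm1, Nyx and Lrtm1 without as many of Grik1, 11 held Grik1 alone at that level, 9 both and 39 neither. This ON and OFF division was made after values were seen.

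Cone genes formed the smaller addition. The 9 cone genes took 0.264% (0.250 to 0.278) of UMIs in Ptbp1-Ctrl and 0.408% (0.388 to 0.429) in Ptbp1-KO, 28.5 and 47.6 times cluster 4, and all 8 with enough CPM were higher past 2-fold. As with the BC genes, those low in cluster 4, such as Arr3 and Opn1mw, pass the CPM filter only through cluster 22, so this count describes little beyond the filter. Arr3, cone arrestin, stood at 542 and 1208 CPM against 14.2 and 9.86, and Opn1mw, the middle-wavelength opsin, at 195 and 450 against 4.39 and 3.14. Thinned in the same way, 13.5% and 25.9% of cluster 22 cells had an Arr3 UMI, against 1.01% and 1.31% in cluster 4 and 3.71% and 4.66% in rods. Trpm1 was seen in 42.7% and 44.4%, against 1.74% and 1.61% in cluster 4 and 1.49% and 1.86% in rods. Both shares lay above those of cells that lack the gene, in both samples.

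Most cells of cluster 22 held RNA of BC or of cones but not of both. Of 143 cells, 101 held 10 or more UMIs of the BC list without as many of the cone list, 26 the reverse, 9 both and 7 neither. Together 136 of 143 (95.1%, 90.2 to 98.0) held at least 10 UMIs of either list, and 135 of these also held 10 or more of the MG core list. In cluster 4 the share was 17 of 2380 (0.714%, 0.417 to 1.14). Among cells of 5000 UMIs or more, it was 103 of 103 in cluster 22 (lower limit 96.5%) and 13 of 486 (2.67%, 1.43 to 4.53) in cluster 4. Glial and neuronal RNA were thus found in the same cells of cluster 22, and cluster 4 cells of like depth seldom held both.

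**Figure D4:**
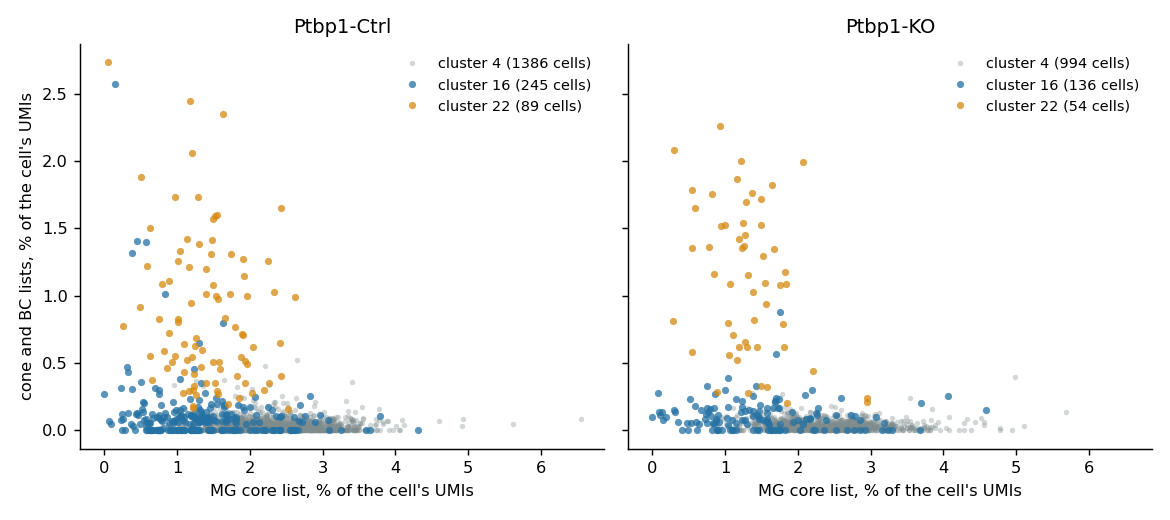
Each point is 1 cell the authors named MG, placed by the percent of its UMIs from the 4 MG core genes (x axis) and from the cone and BC lists together (y axis), for Ptbp1-Ctrl (left) and Ptbp1-KO (right). Cells of cluster 4 (grey) and most of cluster 16 (blue) lie near 0 on the y axis, and 136 of 143 cells of cluster 22 (orange) hold 10 or more cone or BC UMIs beside their glial UMIs.

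The 5 highest genes of cluster 22 were Gabra5, Gm20754, 4930509J09Rik, Cngb3 and C130073E24Rik. Among the neuronal clusters, Cngb3, a subunit of the cone cyclic nucleotide-gated channel, was highest in the cones, and the other 4 in BC clusters 10, 11 and 20. Cngb3 stood at 345 and 455 CPM against 2.59 and 3.14 in cluster 4, a log2 ratio of 7.06 and 7.18. Gabra5, a GABA receptor subunit, stood at 84.0 and 150 CPM, from 32 of 89 and 34 of 54 cells. The leading genes of cluster 22 therefore go against its name, and it is called by its number here. The 5 lowest were Scn7a, Slco1c1, Hey2, Aldh1a1 and Pla2g5, all expressed in cluster 4. Slco1c1, a thyroid hormone transporter, stood at 34.4 and 64.3 CPM against 133 and 141, and Hey2, a Notch target, at 32.5 and 26.8 against 81.6 and 85.4.

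Synaptic genes were also higher in cluster 22, with 8 of the 14 genes of the synaptic vesicle and pan-neuronal list that had enough CPM past 2-fold and none lower. Snap25, a SNARE protein, stood at 657 and 734 CPM against 124 and 108, and Cplx3, the complexin of ribbon synapses, at 353 and 426 against 22.8 and 24.2. Stmn2, Elavl3 and Elavl4, neuronal genes that stood at or under 4.90 CPM in BC and cones, were at or under 2.68 CPM in cluster 22. In cluster 16, 3 of 11 genes of this list were higher, among them Cplx4 of photoreceptor ribbons, at 402 and 361 against 158 and 162. The amacrine list took 0.0471% and 0.0386% of UMIs in cluster 22, against 0.0614% and 0.0708% in cluster 4. The rod list took 0.825% and 0.607% in cluster 22, below cluster 4 in both samples. All neuronal lists together stood 0.73 above cluster 4 on the log2 scale, and 0.18 above the cluster 4 cells of 5000 UMIs or more.

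A fit of each cluster as a non-negative mix of the library's own profiles of cluster 4, rods, cones, BC, amacrine, ganglion and horizontal cells was also made. Cluster 22 was fitted with 56.4% and 54.8% cluster 4, 41.9% and 41.3% BC and 1.62% and 3.91% cones. The residual was 13.3% and 17.8% of the profile. Cluster 16 was fitted with 79.4% and 86.9% cluster 4 and 14.5% and 11.4% rods, and the residual was 45.3% and 47.8%. On the scale of the fit, in which each gene is divided by the square root of its mean level, the mix left more of cluster 16 than of cluster 22 unaccounted for.

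Limited to the 34 cells of cluster 22 without the highest doublet scores, the BC list stood 4.70 above cluster 4 on the log2 scale, against 4.42 in all its cells, and the cone list 3.05 above, against 5.204, all as means of both samples. The 22 MG markers beyond the core list had a median of −0.65 in these cells and −0.78 in all. The score is computed from the same RNA, so the values describe the cells left and do not bear on mixing.

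The genotype was compared within each cluster, first by the targeted gene. Ptbp1 (chr10:79854427-79864771, plus strand) had 10 UMIs in cluster 16 of Ptbp1-Ctrl and 0 in Ptbp1-KO, and 26 and 0 in cluster 22. Taking both clusters together, 36 UMIs (40.2 CPM) stood against 0, where 3 counts over the group would be 4.80 CPM. That is 8.39-fold below the Ptbp1-Ctrl value, leaving out the counting error of the latter. The same measure gave 2.26-fold in cluster 16 and 6.18-fold in cluster 22. Cluster 4 had 258 and 6 UMIs. Both outside clusters of the library labelled Ptbp1-KO thus lacked Ptbp1 UMIs, as far as 3 counts can show.

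Genes were then ranked by their genotype ratio outside cluster 4. Among 4381 genes with enough counts, 31 were over 2-fold higher in Ptbp1-KO (0.708%) and 19 lower (0.434%). In cluster 16, the smaller of the sums, 34 of 2662 were higher (1.28%) and 52 lower (1.95%), in cluster 22 44 of 4059 were higher (1.08%) and 49 lower (1.21%), and in cluster 4 16 of 4148 were higher (0.386%) and 7 lower (0.169%). With 1 library each and fewer UMIs outside cluster 4, these counts are not comparable as numbers of changed genes. Without the highest doublet scores the outside counts were 62 and 54. In cells thinned to 1000 UMIs they were 14 higher and 38 lower, so the balance turned.

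Spc25, a kinetochore gene that is abundant in MG of Ptbp1-Ctrl, was the lowest. It had 207 and 2 UMIs in cluster 16 (log2 −6.14, −9.19 to −4.26), 423 and 4 in cluster 22 (−6.24, −8.12 to −4.87) and 6938 and 69 in cluster 4 (−6.48, −6.85 to −6.14). After thinning, a Spc25 UMI was present in 38.7% of cluster 16 and 53.9% of cluster 22 cells of Ptbp1-Ctrl. In Ptbp1-KO it was present in 0 of 126 cells of cluster 16 (upper limit 2.89%) and 1.85% of cluster 22. The next lowest were Gm47283, Gm10260, Hs3st4 and Sox8. Gm47283, a predicted gene placed on the Y chromosome in GRCm38 (chrY:90784738-90816464), stood at 1208 and 259 CPM outside cluster 4. Its log2 ratios were −2.39 in cluster 16, −2.07 in cluster 22 and −2.19 in cluster 4, and a difference between the 2 mice cannot be told apart from genotype. Hs3st4, a heparan sulfate sulfotransferase, had 126 of its 134 Ptbp1-Ctrl UMIs in cluster 22 and went the other way in cluster 4, with log2 −1.55 (−2.15 to −0.98) outside against 1.43 (0.90 to 1.98). Sox8, a glial transcription factor, was lower outside (−1.54, −2.37 to −0.79) but near 0 in cluster 4 (−0.14, −0.31 to 0.03). Hs3st4 was thus opposite in direction between the sets, and the direction of Sox8 in cluster 4 was not resolved.

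Sntg1, a syntrophin of the dystrophin complex, was the highest, with 11 and 75 UMIs in cluster 16 (log2 3.33, 2.41 to 4.39), 18 and 70 in cluster 22 (2.45, 1.68 to 3.28) and 161 and 893 in cluster 4 (2.64, 2.40 to 2.89). It was followed by Igfbp5, Gm30835, Ccn2 and Arhgap31, all with log2 ratios above 0 in both outside clusters and in cluster 4. Igfbp5, an insulin-like growth factor binding protein, stood at 20.1 and 80.0 CPM outside cluster 4, a log2 ratio of 1.99 (1.19 to 2.86), and Ccn2, a matricellular protein, at 52.5 and 138, a ratio of 1.39 (0.86 to 1.93).

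Genes the study chose on these same cells were higher in Ptbp1-KO outside cluster 4 as well, which is not independent evidence. Fxyd6, a regulator of the sodium-potassium ATPase, stood at 72.8 and 222 CPM in cluster 16, 139 and 252 in cluster 22 and 222 and 515 in cluster 4. Mt1, a metallothionein, stood at 394 and 616, 1250 and 1797, and 1439 and 2616 in the same order. Mt1 was thus far lower in cluster 16 than in cluster 4 in both samples, and its log2 genotype ratio there was 0.64 (0.31 to 0.98), against 0.86 (0.82 to 0.90) in cluster 4. Mt3, the brain metallothionein, stood at 37.8 and 71.5 in cluster 16, where 14 and 18 UMIs could not resolve a difference (log2 0.92, −0.17 to 2.04).

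Ptbp2, the paralog of Ptbp1, did not show a resolved difference outside cluster 4. It stood at 237 and 262 CPM in cluster 16 (log2 0.14, −0.34 to 0.62), 212 and 265 in cluster 22 (0.32, −0.08 to 0.73) and 200 and 314 in cluster 4 (0.65, 0.53 to 0.77). Over both outside clusters the log2 ratio was 0.25 (−0.06 to 0.55), which reaches just into the interval of cluster 4. In cells thinned to 1000 UMIs it was −0.015.

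**Figure D5:**
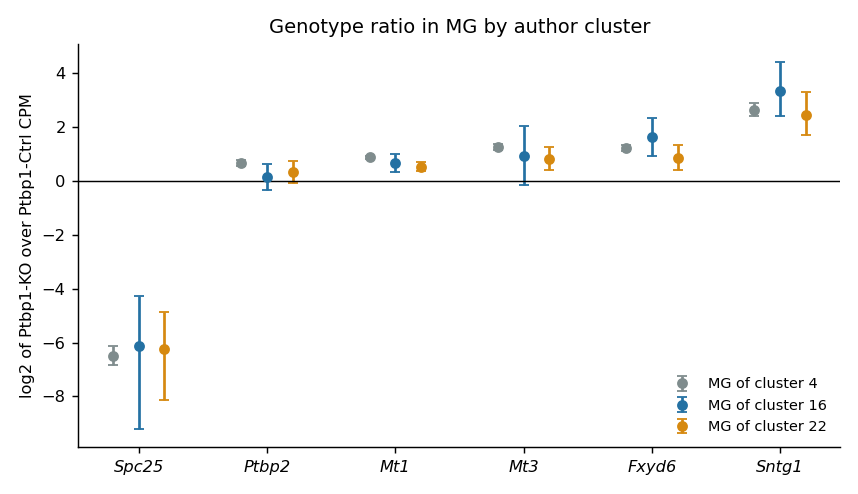
Log2 of Ptbp1-KO over Ptbp1-Ctrl CPM for 6 genes in clusters 4, 16 and 22, with exact conditional 95% intervals that cover counting error only. Spc25 is low and Sntg1 high in all 3 clusters, and the Ptbp2 intervals of clusters 16 and 22 include 0.

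The MG markers themselves did not differ past 2-fold between genotypes outside cluster 4 in most cases. Of the 22 further MG markers, Spc25 was lower past 2-fold in clusters 16 and 22, and Dio2, the type 2 deiodinase, was higher in cluster 16, at 29.7 and 79.4 CPM. None of the 4 core markers passed 2-fold in either cluster, with medians of 0.12 in cluster 16 and −0.07 in cluster 22. Glul stood at 2177 and 2145 CPM in cluster 16 and at 6205 and 5725 in cluster 22. The cone share of cluster 22 differed between samples, 0.264% against 0.408%, and so did the rod share of cluster 16, 2.32% against 1.53%, in the direction of the rod share of cluster 4.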

How the data were processed

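Droplet libraries were aligned by the authors to mm10 with Cell Ranger 7.0.1, and cells were filtered in Seurat. The deposited count table holds raw UMI counts for 25778 genes in 30943 cells, and the deposited cell table gives counts per cell, the percent of mitochondrial UMIs, cluster number and cell type. All 30943 cells met the stated filter (200 to 5000 genes, 700 to 10000 UMIs, under 20% mitochondrial). Cell types were checked by the authors with marker genes per cluster, which a dot plot of the study shows. That plot was not read here, and the text does not list the markers that gave clusters 16 and 22 their name. A doublet removal and the gene annotation are not given in the sources used here. A further 2 columns of per-cell values were not used.

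UMIs were summed per cluster and sample and given as CPM with exact Poisson intervals, ratios with conditional binomial intervals and shares with Clopper-Pearson intervals. There were 370701 and 251767 UMIs in cluster 16 and 523940 and 373478 in cluster 22, so low genes are imprecise there. PCR copies were collapsed by UMI, and intervals cover counting error only. Genes of list medians had 20 or more UMIs, and genotype ratios were ranked among genes of mean CPM 50 or more with 50 UMIs. A count of 0 was set to 3 counts for ranking. The doublet score used 2000 genes, 12 principal components and 50 neighbours, and no cell was removed in the main results. TMM factors came from edgeR 4.0.16 (R 4.3.3), and the rest was computed with Python 3.11.15, numpy 2.4.6 and scipy 1.17.1. Scripts were tested on simulated data.

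Named genes were those of the fixed lists, the 5 highest and 5 lowest of each cluster against cluster 4, the 10 for both together, and the 5 highest and lowest genotype ratios. Members and lists were chosen with earlier results of these data known. Groups by protein location, gene family, and ON or OFF bipolar genes were formed after values were seen. The plan set the clusters beside named neurons of the same author cluster. None exist, so all neurons of each type were used. Gene positions are from GENCODE M21 (GRCm38), for the 99.3% of tested genes with 1 matching name. Alternatives are given in the closing section.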

Additional observations from a re-analysis of the deposited data

Results flagged for a closer look

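Quantities are listed here because clusters 16 and 22 lay on opposite sides of MG of cluster 4 in both samples. The difference between the clusters was not tested. The median UMIs per cell were 1314 in Ptbp1-Ctrl and 1715 in Ptbp1-KO in cluster 16, and 6076 and 7127 in cluster 22. The mitochondrial genes took 2.23% and 1.91% of summed UMIs in cluster 16 and 2.88% and 2.70% in cluster 22. This order did not hold against cluster 4 cells of like depth. There the 13 mitochondrial genes had median log2 ratios of 0.47 and 0.02 in cluster 16, with 8 above 0 and 1 below in both samples. In cluster 22 the medians were −0.04 and −0.12, with 4 above and 5 below. The rod list took 2.32% and 1.53% in cluster 16 and 0.825% and 0.607% in cluster 22. The endothelium list took 0.194% and 0.196% in cluster 16 and 0.0912% and 0.0841% in cluster 22. Lists with under 100 UMIs in any of these sums were not considered, and the part of depth, free RNA or cell mixing in these values was not tested.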

How the results depend on the processing

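No paired analysis was possible because each genotype has 1 sample, and no replicate could be left out for the same reason. Of 257 values under alternatives, 172 moved by less than their counting interval (or stayed within 1.5 times for counts), 84 moved further and 1 changed sign. The last was Ptbp2 outside cluster 4 in cells thinned to 1000 UMIs (log2 −0.015). The cause was not tested. With cells of 1000 or more UMIs only, the outside share in Ptbp1-Ctrl was 16.8%, the depth ratio of cluster 16 was 0.412 and its neuronal lists stood at 1.02 (log2 over cluster 4). Without the highest doublet scores, the outside shares were 15.3% and 12.5%, the outside depth ratio 0.391, the outside glial median −0.25, the neuronal lists 1.04 outside, 0.92 in cluster 16 and 0.89 in cluster 22, the outside counts 126 higher and 175 lower, the lower count of cluster 22 was 50, and the genotype counts 62 higher and 54 lower. Taking cluster 16 alone as the outside cells gave a depth ratio of 0.386, a glial median of −0.20, neuronal lists at 0.98, 142 genes higher and 466 lower, and 52 genes lower in Ptbp1-KO. Cluster 22 alone gave 1.69, −0.78, 0.73, 19 genes lower than in cluster 4 and 49 lower in Ptbp1-KO. Cells thinned before summing gave neuronal lists at 0.92 outside and 0.78 in cluster 22, 221 outside and 76 cluster 22 genes lower, and genotype counts of 14 higher and 38 lower. The mean of single-cell CPM gave an outside glial median of −0.30, neuronal lists at 0.88 outside, 0.89 in cluster 16 and 0.83 in cluster 22, 242 outside genes lower, and genotype counts of 48 and 37. TMM gave glial medians of −0.76 outside, −0.49 in cluster 16 and −1.03 in cluster 22, lower counts of 187, 753 and 145 in the same order, and 42 genes higher in cluster 16. Median-of-ratios scaling gave 31 genes lower in cluster 22. With a mean CPM of at least 200, the counts higher and lower were 50 and 31 outside, 34 and 151 in cluster 16 and 79 and 1 in cluster 22, and with no minimum CPM they were 980 and 253, 1258 and 904, and 1128 and 214. Subtracting the profile of all cells gave genotype counts of 51 and 43. Against cluster 4 cells of like depth, a comparison chosen after seeing the data, cluster 16 had a glial median of −0.80, neuronal lists at 1.32 and 252 genes higher, and cluster 22 had neuronal lists at 0.18. Depth limits cluster 16 most, with 251767 UMIs in Ptbp1-KO.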

Other observations

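Pooling clusters 16 and 22 joins unlike cells. Of the 10 highest genes of the pooled cells over cluster 4 (Gm20754, Cngb3, Nyap2, C130073E24Rik, Cdh18, Samsn1, Ntng1, Car10, Cntn5 and Tmem132d), Cngb3 was highest in cones and the other 9 in BC clusters. Car10, a carbonic anhydrase-related protein, stood at 1050 and 959 CPM in cluster 22 and at 51.2 and 35.8 in cluster 16, against 9.18 and 11.7 in cluster 4. Cntn5, an adhesion protein of neurons, stood at 832 and 616 CPM in cluster 22 and at 13.5 and 11.9 in cluster 16. The pooled high genes were thus those of cluster 22. The 10 lowest (S100a13, Cryab, S100a16, S100a10, AW047730, Rgs2, D630033O11Rik, 2900052N01Rik, Dbi and Dapl1) were below cluster 4 in both outside clusters. Cryab, a small heat shock protein, stood at 64.7 and 111 CPM in cluster 16 and 273 and 214 in cluster 22, against 542 and 592 in cluster 4.

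Slc6a11, a GABA transporter of MG, stood at 510 and 493 CPM in cluster 16, 290 and 257 in cluster 22 and 395 and 419 in cluster 4.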
